A study of Mus musculus with 2 samples.

Results

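Glutamate transporters of the plasma membrane and of the synaptic vesicle were described in Purkinje cells captured from mouse cerebellum. The 9 genes were picked by symbol: Slc1a1, Slc1a2, Slc1a3, Slc1a4, Slc1a5, Slc1a6, Slc17a6, Slc17a7 and Slc17a8. All 9 had an entry among the 43346 mouse genes of the deposited tables. RNA-seq had been run on 2 pools of 50 Purkinje cells, taken by laser capture per the labels' protocol links. Both pools came from adult male C57Bl6 animals (strain B6NCrl in the labels), wild type and 8 months old, with no treatment and no transgene named. There was thus 1 group, no contrast between conditions and no test. Pool 1 and pool 2 are the labels' biological replicates 1 and 2, but both carry the same donor identifier, so the spread between them may be technical. A Smart-seq protocol is linked in the labels of pool 2, and none in those of pool 1.

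The libraries held 23830685 and 27907662 expected counts, which are reads assigned by estimation, in pool 1 and pool 2. Levels are in TPM, a unit corrected for transcript length and scaled to the same total in each library. The labelled cell type had its markers: all 10 Purkinje cell genes checked were detected, with Pcp4, a calmodulin-binding peptide, at 16756 and 17167 TPM and Calb1, the calcium buffer calbindin, at 2860 and 2011 TPM. All 12 markers of Bergmann glia and astrocytes were detected too, so the pools also held glial RNA. Because each pool is a mixture, a larger share of cells of a type and more RNA per cell cannot be told apart in any level below.

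Glutamate released at a synapse is not broken down outside the cell and is removed by sodium-coupled transporters of the SLC1 family. In the molecular layer, sheaths of Bergmann glia around the Purkinje cell spines carry Slc1a3 (GLAST) and Slc1a2 (GLT-1), while the Purkinje cell itself carries Slc1a6 (EAAT4) and some Slc1a1 (EAAC1). Slc1a4 and Slc1a5 belong to the same family but exchange neutral amino acids. The SLC17 members Slc17a6, Slc17a7 and Slc17a8 fill synaptic vesicles with glutamate, whereas Purkinje cells release GABA.

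The SLC1 genes are related but well separated in sequence, which bears on whether reads can be given to the right member. Over the 15 pairs, coding sequences of the leading transcripts were identical at 50.7% to 68.2% of aligned bases, with a median of 54.2%. The highest value was between Slc1a3 and Slc1a6, the glial and the neuronal gene with the highest levels, and the neutral exchangers Slc1a4 and Slc1a5 shared 62.5%. The 60-base window with the most bases shared by all 6 genes was taken from each, 5′ to 3′ on the coding strand, with capitals at the 35 bases identical in all 6. It falls in the stretch for the seventh membrane segment, which takes part in binding sodium in this family. The sequences come from GENCODE M21 transcripts (GRCm38).
Slc1a3, exon 8, chr15:8642241-8642300, minus strand: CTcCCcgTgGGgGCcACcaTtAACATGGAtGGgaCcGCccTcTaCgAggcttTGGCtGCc
Slc1a2, exon 8, chr2:102761091-102761150, plus strand: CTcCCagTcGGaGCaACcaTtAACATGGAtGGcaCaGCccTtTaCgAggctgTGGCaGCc
Slc1a6, exon 8, chr10:78801878-78801937, plus strand: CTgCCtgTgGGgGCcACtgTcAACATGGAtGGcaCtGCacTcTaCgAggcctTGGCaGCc
Slc1a1, exon 10, chr19:28905409-28905468, plus strand: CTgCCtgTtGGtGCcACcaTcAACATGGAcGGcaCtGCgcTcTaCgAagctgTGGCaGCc
Slc1a4, exon 6, chr11:20307951-20308010, minus strand: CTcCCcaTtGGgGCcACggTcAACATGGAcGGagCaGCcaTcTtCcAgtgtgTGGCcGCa
Slc1a5, exon 7, chr7:16795834-16795893, plus strand: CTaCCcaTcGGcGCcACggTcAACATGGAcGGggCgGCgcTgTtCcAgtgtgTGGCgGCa

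Even in this window Slc1a3 and Slc1a6 matched at 50 of 60 bases, and Slc1a3 and Slc1a2 at 51. At 7 of the 60 bases the 4 glutamate carriers had 1 base and the 2 neutral exchangers another. Along the whole leading transcripts of Slc1a3, Slc1a4, Slc1a5, Slc1a6, Slc17a6 and Slc17a7, no stretch of 50 bases occurred in a transcript of any other gene, on either strand. Such stretches made up 1.49% of Slc1a2 and 1.52% of Slc17a8, each shared with many genes, and 30.1% of Slc1a1, all shared with 4430402I18Rik on the opposite strand.

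Of the 9 transporters, 5 were detected, meaning that they reached 1 TPM in each of the pools: Slc1a3, Slc1a6, Slc1a2, Slc1a4 and Slc1a1. Across all mouse genes 28.8% passed the same threshold. Slc17a7 and Slc1a5 had counts but stayed below it, and Slc17a6 and Slc17a8 had no count in either pool.

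**Figure D1:**
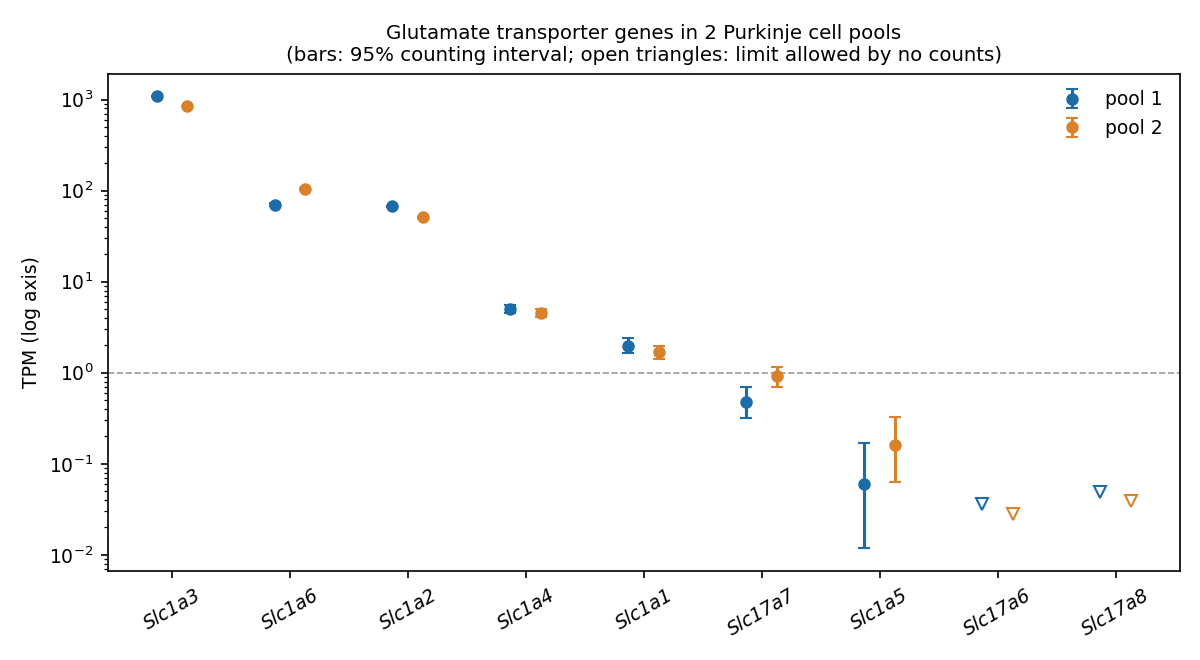
TPM of each of the 9 transporter genes (log axis) in pool 1 and pool 2, ordered by mean, with 95% exact Poisson intervals as bars, the 1 TPM threshold as a dashed line and open triangles at the limit that no counts allow. Slc1a3 stands alone at the top, at 1083 and 852 TPM, and Slc1a6 and Slc1a2 lie close together.

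The glial transporter Slc1a3 (ENSMUSG00000005360.10, chromosome 15, 8634124 to 8710764, minus strand) was the leading member in both pools. It had 79514 expected counts and 1083 TPM in pool 1 (95% counting interval 1076 to 1091), and 78954 counts and 852 TPM in pool 2 (846 to 858). Its mean was 968 ± 164 TPM (SD, n = 2). It ranked 115th among mouse genes in pool 1 and 147th in pool 2, so the level of this one transporter was among those of the most abundant messages of the pools.

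Slc1a2 (ENSMUSG00000005089.11, chromosome 2, 102658659 to 102790784, plus strand), the other glial glutamate transporter and the main one of the forebrain, had 67.3 TPM in pool 1 and 50.8 TPM in pool 2. The mean was 59.0 ± 11.7 TPM (SD, n = 2). Slc1a3 was 16.1-fold above Slc1a2 in pool 1 and 16.8-fold above it in pool 2, so the proportion between both glial genes was nearly the same in the pools. Counts alone give smaller ratios, 5.46 and 5.65, because Slc1a2 transcripts averaged 11008 nt in pool 1 against 3797 nt for Slc1a3 and collect more reads per molecule.

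Slc1a6 (ENSMUSG00000005357.8, chromosome 10, 78780496 to 78814765, plus strand) is the transporter of Purkinje cell spines and dendrites. It had 2760 counts and 69.9 TPM in pool 1 (interval 67.3 to 72.5), and 5231 counts and 104 TPM in pool 2 (102 to 107). The mean was 87.2 ± 24.4 TPM (SD, n = 2), second among the 9 genes and lower than each of the 4 most abundant Purkinje cell markers, Pcp4, Gng13, Pcp2 and Car8. Lhx1, the lowest of the 10 markers, had 82.4 and 64.4 TPM, above Slc1a6 in pool 1 and below it in pool 2. In pool 1 the counting interval of Slc1a6 overlapped that of Slc1a2, which reached from 66.2 to 68.4 TPM, so these neighbours in the order were level there. In pool 2 Slc1a6 was clearly the higher, with Slc1a2 at 0.486 of its level, against 0.963 in pool 1.

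Slc1a1 (ENSMUSG00000024935.6, chromosome 19, 28835049 to 28913960, plus strand), a neuronal carrier of glutamate and cysteine, was low. It had 1.99 TPM in pool 1 (interval 1.66 to 2.39) and 1.67 TPM in pool 2 (1.41 to 1.96), with a mean of 1.83 ± 0.23 TPM (SD, n = 2). Its exons share 2631 bases with 4430402I18Rik, transcribed from the opposite strand and itself at 5.01 and 4.55 TPM. Whether the counting used strand is not stated. It is thus unknown if reads from this overlap were told apart, and the level of Slc1a1 is uncertain.

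The neutral exchangers differed from each other. Slc1a4 (ENSMUSG00000020142.8, chromosome 11, 20302180 to 20332713, minus strand), which carries serine and alanine, had 379 counts and 4.99 TPM in pool 1, and 433 counts and 4.53 TPM in pool 2. Slc1a5 (ENSMUSG00000001918.13, chromosome 7, 16781340 to 16798274, plus strand), a glutamine exchanger, had 3 counts and 0.06 TPM in pool 1, and 7 counts and 0.16 TPM in pool 2. Slc1a4 thus lay above the detection threshold in both pools and Slc1a5 below it.

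The vesicular genes were at or near zero. Slc17a7 (ENSMUSG00000070570.4, chromosome 7, 45163949 to 45176142, plus strand), which encodes VGLUT1 of granule cell terminals, had 27 counts and 0.48 TPM in pool 1 (interval 0.316 to 0.697), and 65 counts and 0.91 TPM in pool 2 (0.702 to 1.16). Slc17a6 (ENSMUSG00000030500.5, chromosome 7, 51622006 to 51671119, plus strand), which encodes VGLUT2 of climbing fibres, had no counts, and 3 counts would correspond to 0.0358 TPM in pool 1 and 0.0282 TPM in pool 2. Slc17a8 (ENSMUSG00000019935.12, chromosome 10, 89574020 to 89621253, minus strand), which encodes VGLUT3, also had none, with limits of 0.0494 and 0.0390 TPM. All counts of the vesicular family, 100% in both pools, therefore belonged to Slc17a7.

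Ordered by mean TPM the genes ran Slc1a3, Slc1a6, Slc1a2, Slc1a4, Slc1a1, Slc17a7 and Slc1a5, followed by Slc17a6 and Slc17a8 at zero. The order was the same in both pools, and the values of neighbours did not overlap across the pools except for the 2 genes at zero. Counting error blurs 2 further steps, between Slc1a6 and Slc1a2 in pool 1 and between Slc1a5 and the genes without counts.

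Within the 6 SLC1 genes, Slc1a3 held 88.3% of the summed TPM in pool 1 and 84.1% in pool 2 (86.2% ± 2.96, SD, n = 2). Slc1a6 held 5.69% in pool 1 and 10.3% in pool 2, and Slc1a2 held 5.48% and 5.01%. The remaining genes had small parts: Slc1a4 had 0.406% and 0.447%, Slc1a1 had 0.162% and 0.165%, and Slc1a5 stayed below both. By expected counts, which favour long transcripts, Slc1a2 took second place with 15.0% in pool 1 and 14.1% in pool 2, ahead of Slc1a6 with 2.84% and 5.30%.

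**Figure D2:**
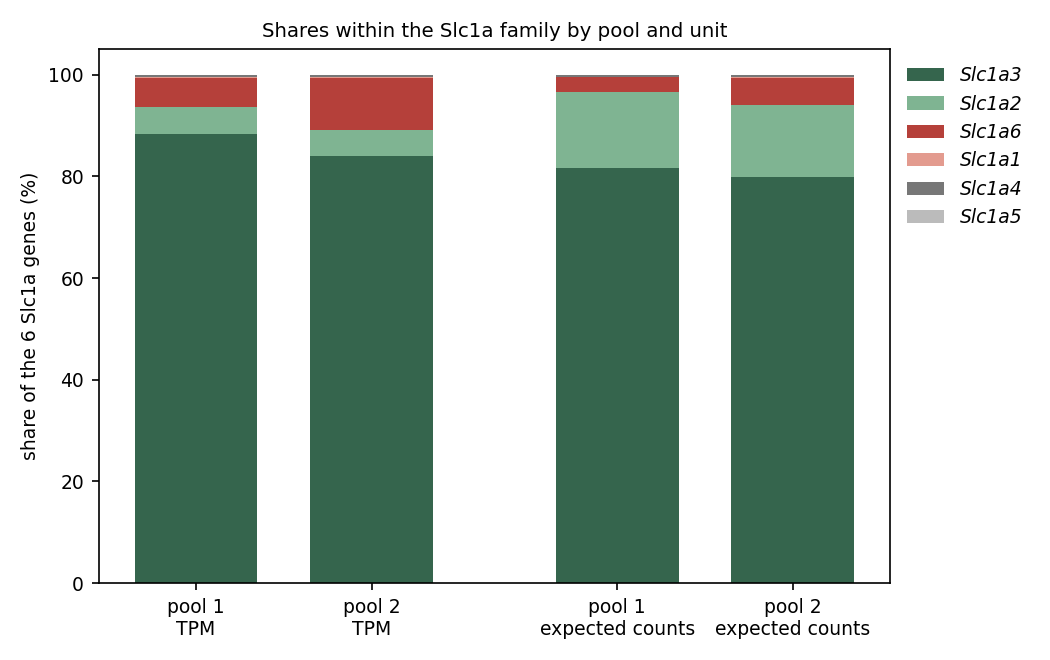
Stacked bars of the share (percent) of each Slc1a gene in the family's summed TPM (left pair) and summed expected counts (right pair), for pool 1 and pool 2. Slc1a3 holds from 80.0% to 88.3% of each bar, and the order of Slc1a2 and Slc1a6 differs between the units.

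The glial genes Slc1a2 and Slc1a3 together had 1151 TPM in pool 1 and 903 TPM in pool 2. The neuronal genes Slc1a1 and Slc1a6 together had 71.9 and 106 TPM. The glial sum was thus 16.0-fold the neuronal sum in pool 1 and 8.51-fold in pool 2, or 3.54 ± 0.64 on the log2 scale (SD, n = 2). Slc1a2 and Slc1a3 thus had the larger sum in both pools, and the proportion differed by 1.88-fold between the pools.

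Markers of the glia that carry Slc1a3 were high in the same pools. The 12 genes of the Bergmann glia and astrocyte list summed to 4303 TPM in pool 1 and 4833 TPM in pool 2, led by Apoe, a lipid carrier, at 1825 and 2492 TPM. By gene, 6 were higher and 6 lower in pool 1, so the larger sum in pool 2 does not describe the list. Their median for log2(TPM + 1) of pool 1 minus pool 2 was 0.12. Timp4, a protease inhibitor, had 626 and 692 TPM, Fabp7, the fatty acid binding protein of radial and Bergmann glia, 514 and 423 TPM, and S100b, a calcium-binding protein, 337 and 356 TPM. None of the 12 was at 0, and the lowest, Gfap, the astrocyte filament, had 4.90 and 4.97 TPM. Slc1a3 lay above every gene of this list except Apoe in both pools. How much of Slc1a2 and Slc1a3 comes from glia was not tested. Markers of further cell types were found as well, and their sums reached 218 and 213 TPM for 6 oligodendrocyte genes, 93.9 and 124 TPM for 5 vascular genes, and 12.7 and 18.1 TPM for 5 microglial genes.

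Of the 7 granule cell markers, 6 were detected, unlike Slc17a7. Gabra6, a GABA receptor subunit of granule cells, had 38.5 TPM in pool 1 and 51.2 TPM in pool 2, which is 80.1-fold and 56.3-fold the level of Slc17a7. Neurod1 had 23.6 and 30.7 TPM, Etv1 19.1 and 23.3 TPM, and Zic1 15.6 and 17.3 TPM, all of them transcription factors. The genes of the list summed to 114 TPM in pool 1 and 148 TPM in pool 2, with none at 0 and with Fat2, a cadherin, the lowest at 0.78 and 0.98 TPM. In pool 2 Fat2 lay within the counting interval of Slc17a7. Their part in the few counts of Slc17a7 was not tested.

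**Figure D3:**
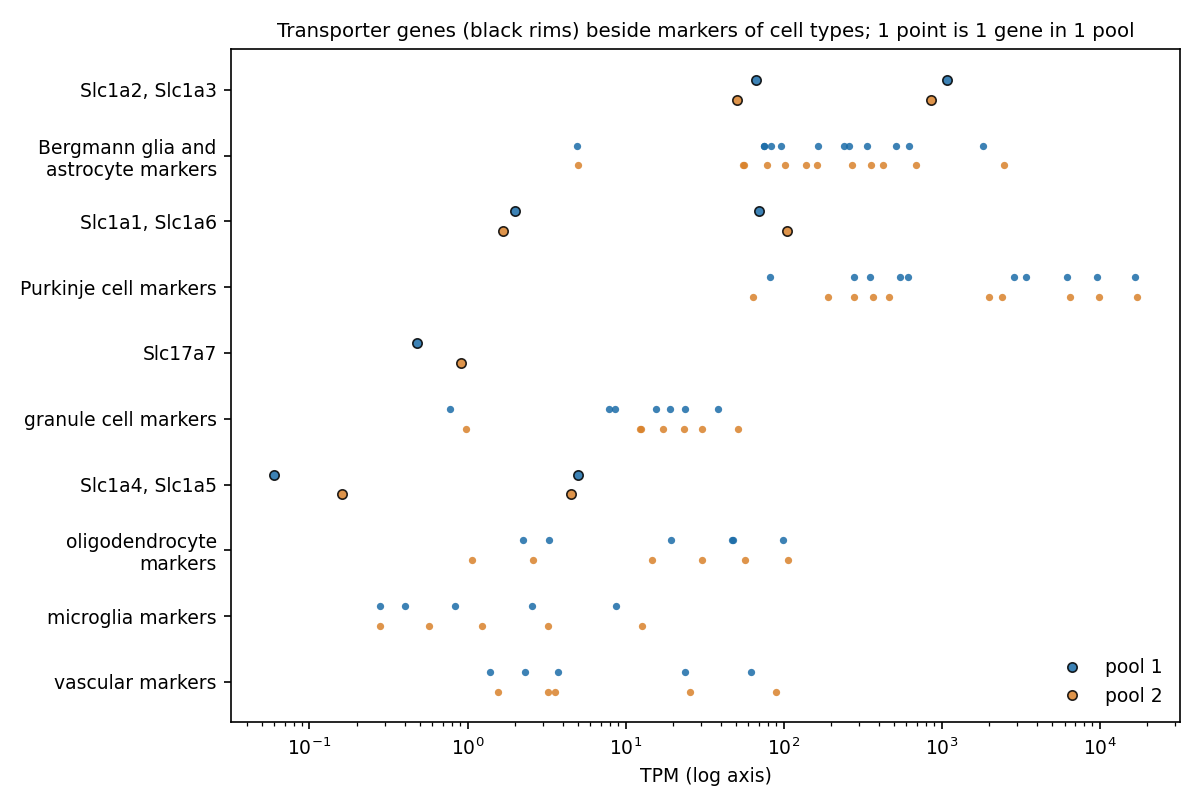
TPM (log axis) of the transporter genes, drawn with black rims, beside markers of cell types, with 1 point per gene and pool and with values of 0 left out. Slc1a3 lies at the upper end of the glial markers, whereas Slc17a7, at 0.48 and 0.91 TPM, lies near Fat2, the lowest granule cell marker, at 0.78 and 0.98 TPM.

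Slc1a3 and Slc1a2 were the higher in pool 1 and Slc1a6 the lower, each by less than 1.5-fold. The difference is given as log2(TPM + 1) of pool 1 minus pool 2, a scale that understates changes of low genes, and a 1.5-fold difference was set as the mark. None of the 5 detected transporters passed it. Of the 13210 genes with a mean TPM of at least 1, 11.5% did, 7.24% higher and 4.26% lower in pool 1. With only 5 genes, none past the mark cannot be told apart from that share. Of the 5 genes, 4 had higher values in pool 1 and 1 had a lower value. Over all 13210 genes the median was 0.07, and 58.4% had higher values in pool 1. With the spike-ins as the scale all 5 were lower in pool 1, but the median of all 13210 genes was then also low, at -0.62.

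Slc1a3 had a log2 difference of 0.35, and its TPM ratio of 1.27 had a counting interval of 1.26 to 1.28. Slc1a2 had 0.40, with a ratio of 1.33 and an interval of 1.30 to 1.36. Both intervals leave out 1, so counting error alone does not span the gap. For Slc1a4, with 0.12, and Slc1a1, with 0.16, the ratio intervals of 0.957 to 1.27 and 0.932 to 1.53 include 1, so no difference was detectable at this depth.

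Slc1a6 went the other way, at -0.57, just short of the mark. Its TPM in pool 2 was 1.49 times that in pool 1, with a counting interval of 1.43 to 1.57. Slc17a7, below the detection threshold, was also lower in pool 1, with pool 2 at 1.90 times its level and an interval of 1.19 to 3.09.

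The sign of several of these differences rests on the scale. The spike-ins, synthetic RNAs added to each library, took 1.40% of counts in pool 1 and 0.940% in pool 2. Taken as the scale they shift every difference by -0.69, which turns Slc1a3 to -0.34, Slc1a2 to -0.29, Slc1a4 to -0.57 and Slc1a1 to -0.53, and puts Slc1a6 at -1.26. One constant was subtracted from every difference, so the order of the 5, with Slc1a6 the lowest, is fixed and is not a further result. The shift was applied to log2(TPM + 1), so the shifted values of low genes such as Slc1a1 are approximate.

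Transcript length moved with the differences over all genes. The median was -0.11 for 2260 genes shorter than 1000 nt, 0.13 for the 4887 genes between 2000 and 4000 nt, and 0.34 for the 226 genes from 8000 nt upward. Slc1a2, with 0.40, is in the longest class and lay close to its median. After subtraction of the trend with length and expression, Slc1a2 was at 0.02 and Slc1a3 at 0.15, while Slc1a6 was at -0.65, past the mark. Slc1a6, of 2089 nt, differs in direction from the median of its length class.

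**Figure D4:**
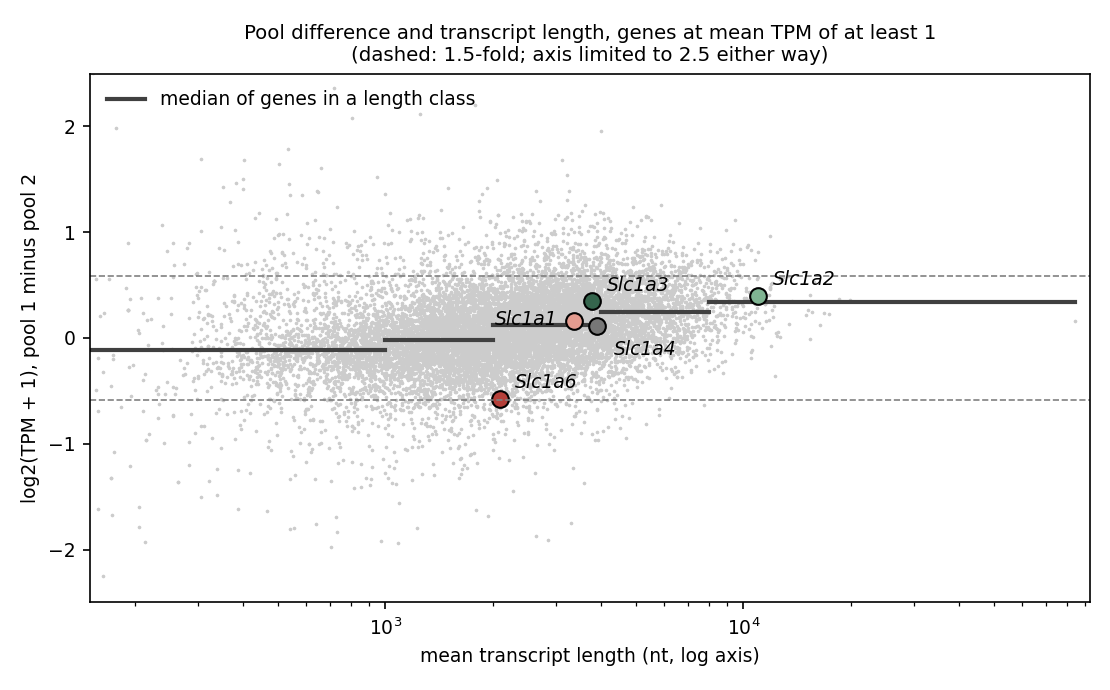
Difference in log2(TPM + 1), pool 1 minus pool 2, against mean transcript length (nt, log axis) for genes with a mean TPM of at least 1, with medians of 5 length classes as bars, the 1.5-fold marks dashed and the 5 detected transporters as large points. Slc1a2 lies near the median of the longest genes and Slc1a6, at -0.57, lies below its class.

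Slc1a6 is known to follow the zebrin bands, the aldolase C stripes of the Purkinje cell layer, with more of the transporter in zebrin-positive cells. Aldoc itself had 2409 TPM in pool 1 and 5861 TPM in pool 2, and Plcb3, a phospholipase of the same bands, had 7.85 and 11.8 TPM, so both were lower in pool 1, as Slc1a6 was. The zebrin-negative genes Plcb4 and Ebf2 were higher in pool 1. Plcb4, another phospholipase, had 352 and 177 TPM, and Ebf2, a transcription factor, had 24.5 and 16.6 TPM. Aldoc and Plcb4 passed the 1.5-fold mark, whereas Plcb3, at -0.53, and Ebf2, at 0.53, fell short of it. After subtraction of the trend with length and expression, Ebf2 was at 0.27 and Plcb3 at -0.74. With the spike-ins as the scale, however, Ebf2 was lower in pool 1, at -0.16. Aldoc is also expressed by astrocytes. Whether the bands sampled account for the values of Slc1a6 was not tested.

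Transcript estimates add detail to these genes. Slc1a3 had counts on all 8 annotated transcripts, and the full-length coding Slc1a3-201 of 4163 nt held 88.0% in pool 1 and 87.5% in pool 2. The 4 retained-intron transcripts together held 9.53% and 10.2%, chiefly Slc1a3-205 with 7.08% and 7.94%. The 2 pools thus gave nearly the same split.

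Slc1a2 is annotated with 12 transcripts, of which 5 had counts. Slc1a2-202, with 11595 nt the longest, held 93.9% in pool 1 and 94.4% in pool 2, and the short Slc1a2-204 of 2093 nt held 5.60% and 3.47%. The 5 transcripts that start at the upstream first exon took 100% and 98.9%, and the 3 that start at the downstream first exon had no counts in either pool. Both leading forms code for proteins with different ends. Their last coding bases, without the stop codon, follow, with 24 shared bases in lower case. Capitals mark the bases beyond the splice site at which Slc1a2-202 leaves exon 10.
Slc1a2-202, capitals in exon 11, chr2:102781463-102781531, plus strand: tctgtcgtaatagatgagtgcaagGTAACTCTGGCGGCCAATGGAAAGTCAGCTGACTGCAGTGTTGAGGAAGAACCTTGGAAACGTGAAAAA
Slc1a2-204, capitals in exon 10, chr2:102777656-102777691, plus strand: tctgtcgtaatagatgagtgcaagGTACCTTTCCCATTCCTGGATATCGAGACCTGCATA

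Beyond that site Slc1a2-202 has 69 coding bases and Slc1a2-204 has 36. The form ending in exon 11 was the leading one in both pools, with 14420 and 13869 counts against 149 and 88.4 counts for the other.

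The lower genes had less settled splits. Slc1a1-201 held 74.7% in pool 1 and 87.4% in pool 2, and the short retained-intron Slc1a1-204 had 18.7% in pool 1 and 0 in pool 2, but from only 3.51 counts in pool 1. For Slc1a4 the estimate put 100% on Slc1a4-202 in pool 1, but 51.8% on Slc1a4-202 and 48.2% on Slc1a4-201 in pool 2. Both models have 8 exons and share 3872 bases, and 54 bases are found only in Slc1a4-202, so this split rests on few positions. Slc1a6 and Slc17a7 had a single annotated transcript each. Slc1a5 had its few counts on Slc1a5-201 in pool 1 and on the non-coding Slc1a5-202 and Slc1a5-204 in pool 2.

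**Figure D5:**
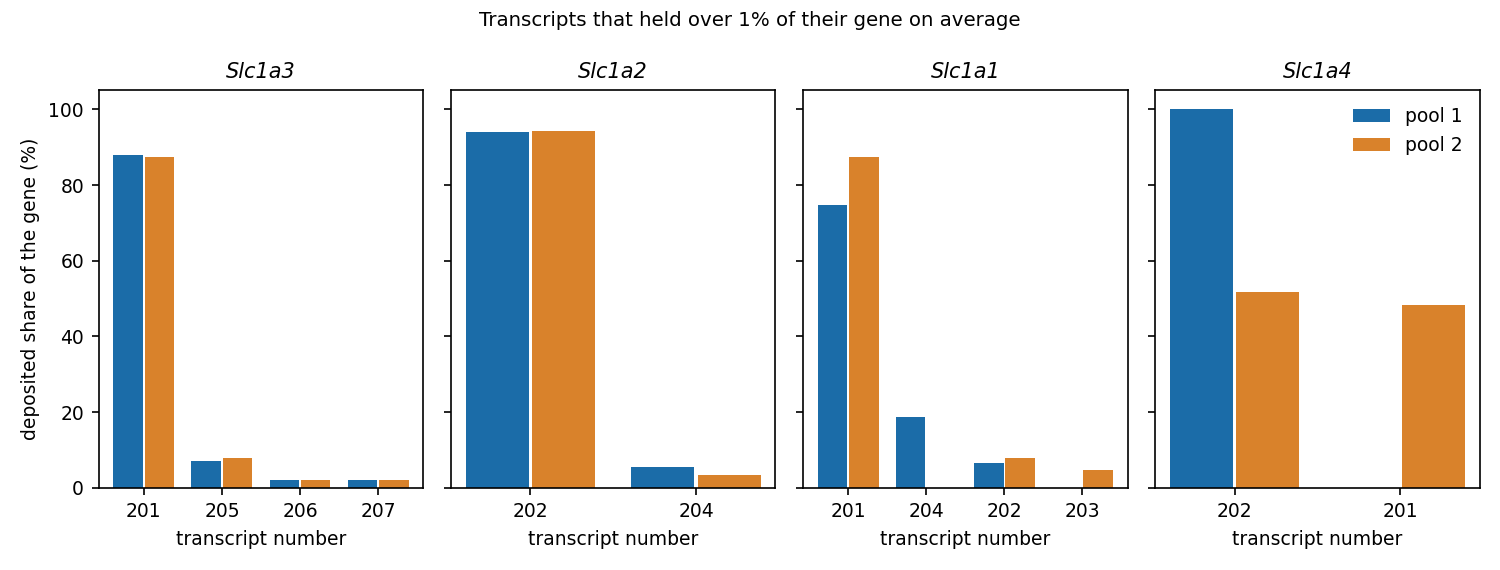
Deposited share (percent) of each transcript in its gene, in pool 1 and pool 2, for transcripts above 1% on average, named by their number. Slc1a3 and Slc1a2 have nearly equal bars in both pools, whereas Slc1a4 splits in pool 2 only.

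Genes that handle glutamate once it is inside the cell were all detected, 6 of 6. Got1, the cytosolic aspartate aminotransferase, had the highest level with 363 TPM in pool 1 and 397 TPM in pool 2. Glul, the glutamine synthetase of glia, had 94.7 and 82.2 TPM, a level between Slc1a3 and Slc1a2. The mitochondrial enzymes Got2 and Glud1 had 70.5 and 63.0 TPM and 68.2 and 54.4 TPM. Gls2, a glutaminase, was low at 2.97 and 6.60 TPM. The median log2 difference of the 6 was 0.04, with 3 higher and 3 lower in pool 1, and Gls2 was the gene past 1.5-fold, lower in pool 1.

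Of 10 carriers of glutamine, glutamate and cystine, 8 were detected, with a median difference of 0.09 and none past 1.5-fold. The mitochondrial glutamate carrier Slc25a18 had 63.5 TPM in pool 1 and 75.3 TPM in pool 2. Slc38a1, a neuronal glutamine importer, had 70.2 and 61.1 TPM. Slc38a3, which releases glutamine from glia, had 7.61 and 11.0 TPM. Slc7a11, the cystine and glutamate exchanger, was not detected, with 0.89 and 0.63 TPM, whereas its heavy chain Slc3a2, which has other partners, had 57.3 and 54.5 TPM.

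Uptake is driven by the sodium and potassium gradients. Kcnj10, the glial potassium channel Kir4.1, was detected with 24.3 TPM in pool 1 and 17.7 TPM in pool 2. Its log2 difference was 0.44, and it was -0.25 with the spike-ins as the scale.

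Of 5 proteins that bind these transporters, 4 were detected. Arhgef11, a partner of Slc1a6, had 3.48 TPM in pool 1 and 3.03 TPM in pool 2. Arl6ip5, a partner of Slc1a1, had 26.1 and 26.7 TPM, far above Slc1a1, and Slc9a3r1, a scaffold for Slc1a3, had 17.6 and 19.0 TPM. Ajuba, a partner of Slc1a2, had 0.09 and 0.15 TPM. The median difference of the detected 4 was 0.06, and none passed 1.5-fold.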

How the data were processed

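The authors quantified both libraries from transcriptome alignments to mm10 with GENCODE M4, per the notes and file headers deposited with the data. Neither the aligner, nor the quantification tool, nor the strand setting is given in the sources used here. Expected counts were deposited without normalization, as reads that estimation assigned to a gene or transcript. The authors' TPM values have the same total in both libraries, which includes the spike-ins. Deposited FPKM values served as an alternative only. Transcript shares are the deposited percent values. Estimation divides reads between overlapping or similar genes.

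Symbols, coordinates and sequences came from GENCODE M21 on the same assembly. The files held 69691 entries, of which 26248 with numeric identifiers and 97 spike-ins were left out of the genes. M21 models of Slc1a5, Slc1a6, Slc17a6 and Slc17a7 differ in length from those counted. The 9 genes and all lists were chosen with earlier results of these data known. Besides the 9 genes, the text names the 4 highest genes of the Purkinje cell, glial and granule cell lists, and Calb1. It also names the lowest gene of the Purkinje cell, glial and granule cell lists, and members of functional lists. Further marker lists are given as sums. Transcripts are named that lead or hold 10% in a pool. Further transcripts were named after their values were seen. Some genes of the functional lists are not reported here. No likeness of pattern to other genes was computed, since 2 pools give no usable correlation.

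Intervals are exact Poisson at 95% on rounded expected counts, or exact conditional ones for ratios. The limit for no counts uses 3 counts. Both bound counting error alone, because reads that carry no molecular identifiers can be copies of one molecule. Alternatives used TMM scaling (edgeR 4.0.16, R 4.3.3), DESeq2 1.42.0 size factors, the spike-ins as the scale, and subtraction of a lowess trend with a span of 30%. The calculations were tested on simulated data. The simulated libraries had no spike-ins and no trend with length, so neither the spike-in scale nor removal of such a trend was checked. Further tools were scipy 1.17.1, numpy 2.4.6 and matplotlib 3.10.9 in Python 3.11.15, with pandas 2.3.3 for tables and statsmodels 0.14.6 for the trend.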

Additional observations from a re-analysis of the deposited data

How the results depend on the processing

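No paired analysis was possible because there is a single group. By expected counts in place of TPM, Slc1a3 held 80.8% of the SLC1 genes rather than 86.2%, and the log2 ratio of glial over neuronal genes was 4.57 rather than 3.54. The values of the single pools range from 84.1% to 88.3% and from 3.09 to 4.001. The share of Slc17a7 is fixed at 100% by the absence of counts for Slc17a6 and Slc17a8 and says nothing about the processing. At a threshold of 5 TPM, 3 transporters were detected rather than 5, and at 10 expected counts 6. The share of all mouse genes was computed for 1 TPM only, so these counts cannot be set against a background. Slc1a6 alone passed 1.5-fold between the pools, giving a count of 1 rather than 0, under TMM scaling (-0.67), DESeq2 size factors (-0.67), the spike-ins (-1.26) and the trend subtraction (-0.65). It did not with a pseudocount of 0.1 or with TPM rescaled without spike-ins. No gene was added when low genes were kept, but log2(TPM + 1) understates their changes, so that check could hardly add one. By TPM alone, pool 2 was 1.90 times pool 1 for Slc17a7 and 2.67 times for Slc1a5, the latter from 7 and 3 counts. The share of all genes past 1.5-fold is given for the TPM scale alone. With the spike-ins the median of all genes was itself past 1.5-fold, at -0.62, so passing it there does not set Slc1a6 apart. Besides the changes of sign with the spike-ins, Slc1a1 turned to -0.05 under both TMM and DESeq2, and Slc1a4 to -0.06 under the trend subtraction. With 2 libraries of 1 group, the depth bounds counting error only.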

Other observations

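Of 7 other genes of the SLC1 and SLC17 families that were looked up, 1 was detected: Slc17a5, the lysosomal exporter of sialic acid, had 9.81 TPM in pool 1 and 8.90 TPM in pool 2, a level above Slc1a4 and Slc1a1. Slc1a7, the glutamate transporter best known from the retina, had no counts in either pool.

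Genes that share a locus with the transporters also had reads. Gm37310, on the same strand within the bounds of Slc1a3 and with no exon bases in common, had 5.34 TPM in pool 1 and 4.97 TPM in pool 2. Gm13872, antisense to Slc1a2 with 189 shared exon bases, had 1.39 and 1.37 TPM. With the strand setting not stated, it is unknown if its reads were told apart from those of Slc1a2 there.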
